A study of Mus musculus with 8 samples.

Results

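The effect of losing 1 allele of Tfam was measured in primary mouse embryonic fibroblasts that either kept or lacked the gene Zbp1. The members are all 8 RNA sequencing libraries of the series: 4 carried a Tfam+/- genotype and 4 did not, and the arms were chosen by genotype label alone. The arm with the genotype held 2 Tfam+/- and 2 Tfam+/-Zbp1-/- libraries, and the other arm held 2 wild-type (WT) and 2 Zbp1-/- libraries. Zbp1 genotype was a term in the model, so the Tfam effect is the mean of a change with Zbp1 (Tfam+/- minus WT) and a change without it (Tfam+/-Zbp1-/- minus Zbp1-/-). These 2 changes share no library. All cells were cultured from embryos of embryonic day 14, grown in serum-containing medium without treatment and harvested after 2 passages. The labels give whole-animal genotypes, Tfam heterozygous and Zbp1 homozygous null, and name no tissue-restricted driver. The labels leave unsaid if the 2 libraries of each genotype are separate embryos or cultures. The p-values thus measure the spread between these libraries, which may be technical. The model held no interaction term, so a difference between the 2 changes also adds to the error of the Tfam effect.

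TFAM is the protein that packages mitochondrial DNA into nucleoids and is needed for its transcription and copying. Cells short of TFAM are known for enlarged nucleoids and for mitochondrial DNA that reaches the cytosol, where DNA sensing turns on type I interferon and, through it, interferon-stimulated genes. ZBP1 is a sensor of left-handed nucleic acids and is itself encoded by an interferon-stimulated gene.

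Library totals were 16752835 to 18303036 normalized counts, with 16051 to 16261 genes above 0 per library. Tfam+/- replicate 1 and Zbp1-/- replicate 2 stood apart from the other library of their genotype in a shift they shared. Among genes of 100 to 1000 estimated reads, the median squared difference between the 2 libraries of a genotype was 22.3 times that of counting noise in Tfam+/- and 19.7 times in Zbp1-/-. It was 1.20 times in WT and 1.16 times in Tfam+/-Zbp1-/-, so those pairs varied little beyond counting. The shifted libraries lie in opposite arms, 1 in each Zbp1 background, so as far as the shift is shared it cancels in the Tfam effect and adds to its error. A term for these 2 libraries (called the shared term below) was therefore added, with earlier results of these data known. It left every Tfam main effect as it was and changed its error, but it moved interactions (that of Cdh19 went from -0.02 to -1.40). Changes within 1 background carry the shift, so values without the 2 shifted libraries are given beside some of the genes. Each such value sets 1 library against a pair, so its spread is not known. All 12 fibroblast markers were present, including Col1a1, Col3a1 and Vim. The other lineages were checked by whole marker lists. Endothelial markers (5 of 10 tested) summed to 804 to 1016 normalized counts without a Tfam+/- genotype and to 863 to 1148 with it. Epithelial markers (4 of 10 tested) summed to 649 to 813 and to 646 to 1125, and skeletal muscle markers (5 of 16 tested) to 722 to 1144 and to 660 to 1831. Of the defining markers Cd3e, Cldn5 and Esrp1 were at 0 in all 8 libraries, while others such as Kdr, Eng, Des and Acta1 were present. Their part in the results was not tested. Macrophage genes such as Lyz2 were present, at 1375 to 3445 normalized counts.

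Tfam lies on chromosome 10 from 71225468 to 71238328 (GRCm38). Its normalized counts were 629 and 610 in WT against 278 and 365 in Tfam+/-, then 675 and 471 in Zbp1-/- against 424 and 375 in Tfam+/-Zbp1-/-. Every library with the Tfam+/- genotype was below every library without it. The arm with the genotype averaged 360 ± 60.7 (SD, n = 4) and the other 596 ± 87.9 (SD, n = 4), or 60.4% of the level without it. The share was 51.9% with Zbp1 and 69.7% without. On the log2(normalized count + 1) scale the main effect of -0.73 ± 0.165 (SE) missed the threshold in the additive limma fit (adjusted p = 0.40). With the shared term the SE was 0.055 and the adjusted p 4.2e-04. An exact permutation of the arms within each Zbp1 background gave a two-sided p of 0.0556, the smallest that its 36 arrangements allow. When the 2 shifted libraries were left out, the change was -0.76 in each background, each time from 1 library against a pair. Zbp1 had 7.34 and 3.19 normalized counts in WT against 64.6 and 69.8 in Tfam+/-, then 3.79 and 1.03 in Zbp1-/- against 0.862 and 2.69 in Tfam+/-Zbp1-/-. The Zbp1-/- genotypes thus lacked the level that Zbp1 had in Tfam+/- cells.

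Across the 13267 genes tested (mean of at least 10 normalized counts), the additive fit called 1 gene at an adjusted p under 0.05. This gene, Igfbp3, is 0.00754% of those tested, and 729 genes had an unadjusted p under 0.05. With the shared term 915 genes (6.9%) were called, 460 higher (3.47%) and 455 lower (3.43%) with the Tfam+/- genotype. Of these, 343 of the higher (2.59% of genes tested) and 319 of the lower (2.4%) moved the same way in both Zbp1 backgrounds. Over all genes tested, 885 (6.67%) had libraries that did not overlap between genotypes in either background with the same direction in both. The called genes among them formed a stricter set. It held 195 higher genes (1.47%) with a median change of 0.32 and 192 lower genes (1.45%) with a median of -0.51 on the log2 scale. Large changes in both backgrounds were few: the smaller of the 2 changes exceeded 1 on the log2 scale in 8 higher and 2 lower genes.

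The count of 915 depended on how the close WT and Tfam+/-Zbp1-/- pairs were counted. With each of these pairs averaged into 1 sample, the shared-term fit called 19 genes (0.143%), 5 higher (0.0377%) and 14 lower (0.106%), of which 18 were among the 915. The other was Gvin1, a large interferon-inducible GTPase gene, at 4.90 on the log2 scale (adjusted p = 0.012, limma). Without WT replicate 1 or 2 it called 295 or 354 genes, and without Tfam+/-Zbp1-/- replicate 1 or 2 it called 303 or 256. Without Tfam+/- replicate 2 the count rose to 1493. The 6 libraries left after dropping both shifted ones gave 92 calls (0.693%), 25 higher (0.188%) and 67 lower (0.505%), and all 92 were among the 915 with the same sign.

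The genes of one background were also read in the other, which used none of the same libraries. Of 97 genes called in Tfam+/- against WT (0.731%), 52 (53.6%) moved the same way without Zbp1. On the interferon list this was 33 of 48, and off it 19 of 49. Of 55 genes called in Tfam+/-Zbp1-/- against Zbp1-/- (0.415%), 30 (54.5%) moved the same way with Zbp1. Over all genes tested the share with the same sign was 29.7%, and the changes of the 2 backgrounds correlated at r = -0.33. This r is across genes, which are not independent replicates and share the 2 shifted libraries' displacement. In the 6 other libraries the share was 52.4% and r was 0.00. When the other background was read in these 6, 48 of the 97 genes and 33 of the 55 moved the same way. Of the 97, this was 31 of 48 on the interferon list and 17 of 49 off it.

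**Figure D1:**
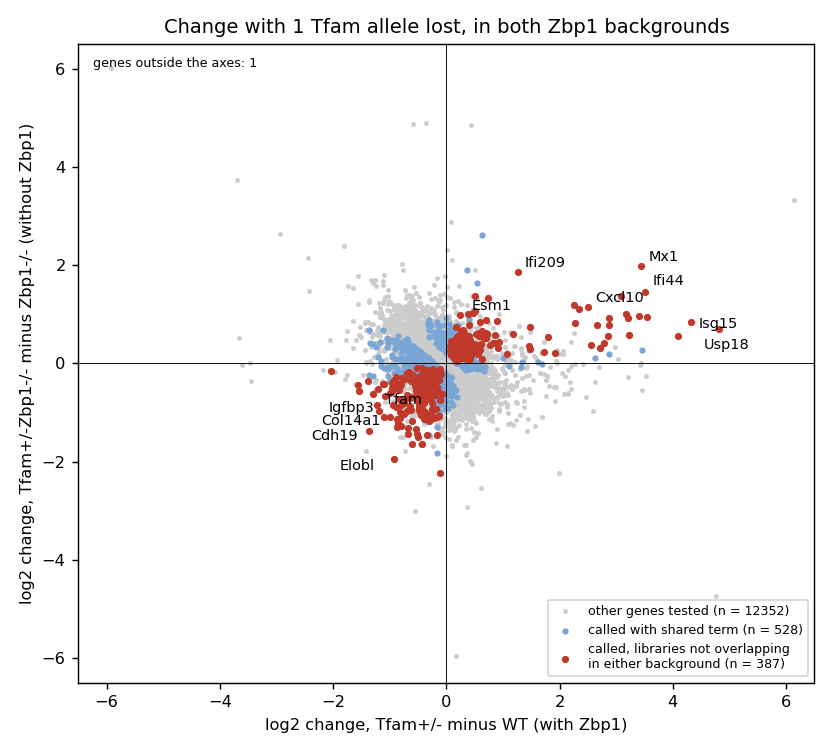
Log2 change with 1 Tfam allele lost in cells with Zbp1 (horizontal axis) and without Zbp1 (vertical axis), 1 point per gene tested. Red points are the 387 genes called with the shared term whose libraries did not overlap in either background, blue points the 528 other called genes and grey points the 12352 genes not called; 1 gene lies outside the axes. Interferon-stimulated genes such as Usp18 and Isg15 extend far along the horizontal axis and little along the vertical one, while Igfbp3 and Cdh19 lie near the diagonal of equal change. Without the 2 shifted libraries the Cdh19 changes were -0.72 and -2.12.

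Igfbp3 was the only gene called in the additive fit, and it fell in both backgrounds. It encodes the main serum binding protein of insulin-like growth factors, which fibroblasts secrete, and lies on chromosome 11 from 7206086 to 7215498. Normalized counts were 4493 and 4602 in WT against 2384 and 2358 in Tfam+/-, then 8576 and 8252 in Zbp1-/- against 4657 and 4674 in Tfam+/-Zbp1-/-. The level without Zbp1 was higher throughout, and within each background the Tfam+/- libraries were lower by nearly the same amount. The change was -0.94 with Zbp1 and -0.85 without, and the main effect was -0.89 ± 0.066 (SE; additive limma fit, adjusted p = 0.015). The interaction, the change without Zbp1 minus the change with it, was 0.09 (adjusted p = 0.63). In the additive fit the call held in 2 of 8 fits that each left out 1 library, those without Tfam+/- replicate 1 or Zbp1-/- replicate 2. With the shared term it held in 6 of 6.

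Other secreted and matrix genes had the same arrangement of libraries. Col14a1, a collagen that sits on the surface of collagen fibrils (chromosome 15, 55307644 to 55520803), had 420 and 476 normalized counts in WT against 263 and 227 in Tfam+/-, then 801 and 751 in Zbp1-/- against 335 and 370 in Tfam+/-Zbp1-/-. It fell by 1.00 ± 0.076 on the log2 scale (SE with the shared term; limma, adjusted p = 4.2e-04). Sfrp1, a secreted antagonist of WNT ligands chosen after its values were seen, had 1159 and 1181 in WT against 640 and 760 in Tfam+/-, then 2492 and 2307 in Zbp1-/- against 1181 and 1164 in Tfam+/-Zbp1-/-. In both genes the Zbp1-/- libraries were the highest and the Tfam+/-Zbp1-/- libraries lay near or below the WT libraries. Sfrp1 changed by -0.75 with Zbp1 and by -1.03 without.

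Nkd1, which encodes an intracellular inhibitor of WNT signalling, had 74.7 and 75.5 normalized counts in WT and 37.6 and 37.0 in Tfam+/-. Without Zbp1 it went from 130 and 162 to 54.0 and 85.3. The changes were -0.99 and -1.08 (main effect SE 0.155 with the shared term, adjusted p = 0.0079, limma). Ppp1r3c, whose product brings protein phosphatase 1 to glycogen, had 82.8 and 95.0 in WT and 31.1 and 52.9 in Tfam+/-. Without Zbp1 it went from 161 and 145 to 68.6 and 73.3. The changes were -1.11 and -1.10, with no overlap of libraries, but -0.73 and -1.17 without the shifted libraries.

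Il33, an alarmin cytokine of stromal cells, fell in both backgrounds, and its receptor gene Il1rl1 rose. Il33 had 50.4 and 51.0 normalized counts in WT against 17.3 and 25.8 in Tfam+/-, then 80.0 and 47.8 in Zbp1-/- against 30.6 and 37.9 in Tfam+/-Zbp1-/-. The main effect was -1.03 ± 0.151 (SE with the shared term, limma, adjusted p = 0.0074). Its changes were -1.22 with Zbp1 and -0.84 without, or -0.95 and -1.21 without the shifted libraries. Il1rl1 (ST2), chosen after its values were seen, had 9526 and 9543 in WT against 10190 and 15244 in Tfam+/-, then 10237 and 6952 in Zbp1-/- against 16822 and 16992 in Tfam+/-Zbp1-/-. The Tfam+/- libraries were above the controls in each background, by 0.39 with Zbp1 and 1.00 without. Leaving out the 2 shifted libraries brought these changes to 0.68 and 0.72. Il1rl1 was also among the 19 genes called with the close pairs averaged (adjusted p = 0.0047, limma).

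The other named falls were of lower levels. Fmo2, a flavin-containing monooxygenase, fell by 1.19 with Zbp1 and 0.98 without on the log2 scale, and Vstm4 by 0.88 and 0.89. Abcc9, a regulatory subunit of potassium channels gated by ATP, fell by 0.88 and 1.30, and Cygb (cytoglobin, a heme protein of fibroblast-like cells) by 0.86 and 1.21. Elobl fell by 0.93 and 1.94. Without the shifted libraries the changes of Fmo2 were -0.81 and -1.61, and those of Abcc9 -0.33 and -1.60. None of these 5 was called in the additive fit. With the shared term Fmo2, Abcc9 and Cygb kept the call in 1 of 6 fits that left out another library, Vstm4 in 4 and Elobl in 6.

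Cdh19, a cadherin, is known from the Schwann cell lineage. It had 94.6 and 92.5 normalized counts in WT against 22.7 and 56.3 in Tfam+/-, then 164 and 58.2 in Zbp1-/- against 39.6 and 34.4 in Tfam+/-Zbp1-/-. The change was -1.36 with Zbp1 and -1.38 without, but -0.72 and -2.12 once the shifted libraries were left out. Of 11 neural and Schwann markers tested, 2 fell and 1 (Stmn2) rose, against 3.43% and 3.47% of all genes tested. The falls included the neurotrophin receptor gene Ngfr. Among the shared-term fits that left out another library, the Ngfr call held only without Tfam+/- replicate 2. The transcription factor gene Sox10 and the receptor gene Erbb3 had main effects of -0.49 and -0.73 that did not pass (adjusted p = 0.36 and 0.082). The list's summed level ranged from 1907 to 2440 without a Tfam+/- genotype and from 1954 to 2256 with it. In these bulk samples fewer cells of a type and less RNA per cell cannot be told apart, and the part of these cells in the result was not tested.

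**Figure D2:**
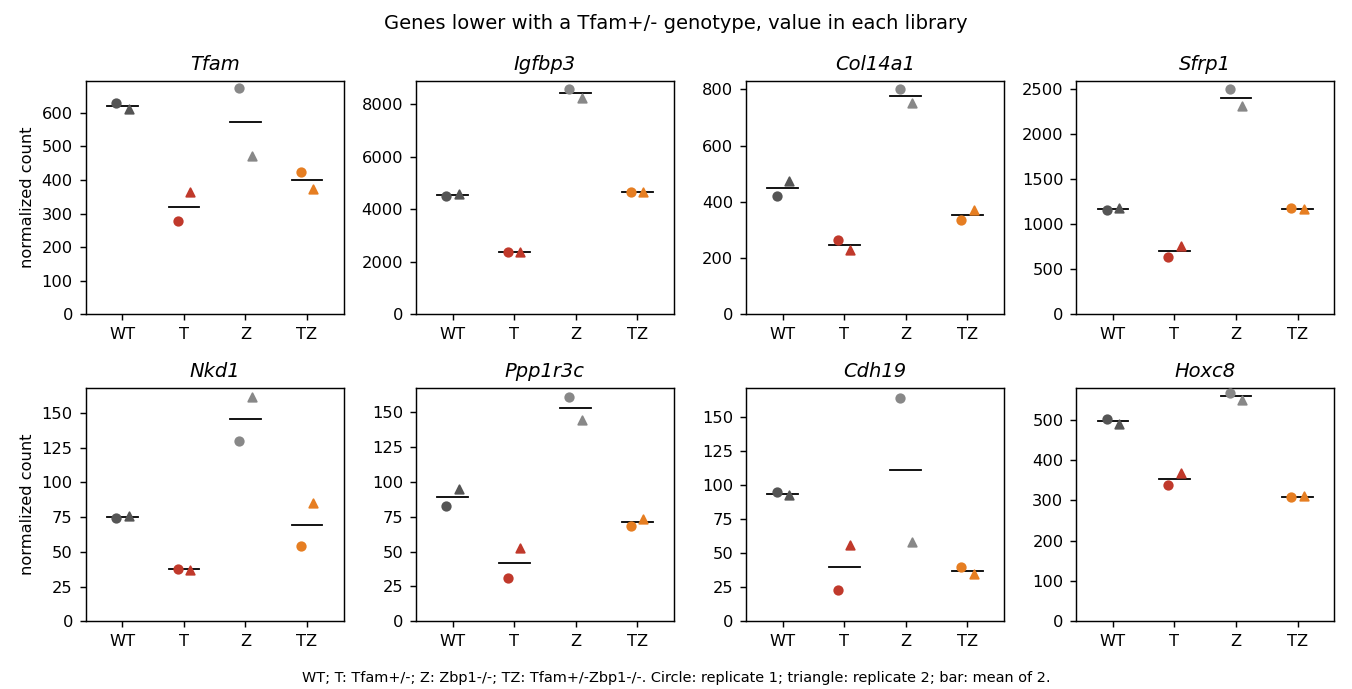
Normalized counts per library (vertical axis, starting at 0) of 8 genes lower with a Tfam+/- genotype, for WT, Tfam+/- (T), Zbp1-/- (Z) and Tfam+/-Zbp1-/- (TZ). Circles are replicate 1, triangles replicate 2 and bars the mean of 2. In each panel T lies below WT and TZ below Z; Cdh19 replicates in Z spread from 58.2 to 164, while those of Igfbp3 nearly coincide.

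Of the 12 named rises, 11 are known as interferon-inducible genes: Mx1, Ifi44, Apol9b, Ifi209, Phf11d, Cxcl10, Cmpk2, Ccl5, Rtp4, Ifit1 and Ddx60. Of the 62 members of the interferon list that were tested, 32 rose with the shared term and 0 fell, against 3.47% and 3.43% of all genes tested. In 27 of the 62 the libraries did not overlap in either background, with all Tfam+/- libraries higher, against 3.46% of all genes tested. Their median change was 2.15 with Zbp1 and 0.20 without, against -0.01 and 0.02 over all genes tested. All 62 were above 0 with Zbp1 and 40 were above 0 without it. With the close pairs averaged limma called 0 of the 62 (50 were higher at an unadjusted p under 0.05), and in the 6 libraries it called 4. Both of these fits called few genes over all those tested, as given above. With the spread taken from the 4 genotype means, limma called 35 of the 62 higher and 0 lower. Over all genes tested that fit called 83 (0.626%). The genes of the list and the part as a whole were picked with earlier results of these data known, so the direction of the list is not independent evidence.

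The response differed in size between the backgrounds. The interaction passed for 27 of the 62 list members, against 88 of all genes tested (0.663%). With the shared term it passed for 57 of the 62, against 2240 genes (16.9%). Usp18, which encodes a protease that removes the ubiquitin-like ISG15 and dampens interferon receptor signalling, had 26.4 and 21.3 normalized counts in WT and 761 and 625 in Tfam+/-. Without Zbp1 it went from 35.3 and 44.9 to 59.5 and 71.6. The changes were 4.81 and 0.70, and the interaction was -4.11 (limma, adjusted p = 0.015). Isg15 itself had 49.0 and 71.7 in WT against 1410 and 1038 in Tfam+/-, then 80.9 and 103 in Zbp1-/- against 150 and 180 in Tfam+/-Zbp1-/-. Both genes were chosen after their values were seen, and both kept separate libraries without Zbp1 at a much smaller change.

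The promoters of 3 such genes are printed because these genes moved together and carry the binding motif of the interferon-activated complex. The letters searched were GAAA, then NN, then GAAA in 1 run on both strands, the core of the interferon-stimulated response element, where N is any base. Capitals mark the matches in the 250 bases before the start of transcription (RefSeq, GRCm38.p6), read 5′ to 3′ on the gene's strand. The Ifit1 promoter is chr19:34640639-34640888 on the plus strand, with 2 matches on the other strand, of which the first spans 104 to 95 bases before the start. The Isg15 promoter is chr4:156200819-156201068 on the minus strand, with 3 overlapping matches from 78 bases before the start. The Cxcl10 promoter is chr5:92348890-92349139 on the minus strand, with 1 match 213 to 204 bases before the start.
Ifit1: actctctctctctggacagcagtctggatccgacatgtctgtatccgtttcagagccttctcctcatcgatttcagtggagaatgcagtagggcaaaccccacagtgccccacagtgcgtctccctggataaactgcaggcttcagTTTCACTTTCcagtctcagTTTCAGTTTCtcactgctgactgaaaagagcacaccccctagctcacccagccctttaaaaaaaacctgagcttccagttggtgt
Isg15: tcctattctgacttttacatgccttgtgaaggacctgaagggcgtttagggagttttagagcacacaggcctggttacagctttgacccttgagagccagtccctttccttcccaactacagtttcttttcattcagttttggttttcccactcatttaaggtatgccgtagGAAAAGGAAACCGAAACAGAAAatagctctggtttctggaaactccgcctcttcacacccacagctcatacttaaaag
Cxcl10: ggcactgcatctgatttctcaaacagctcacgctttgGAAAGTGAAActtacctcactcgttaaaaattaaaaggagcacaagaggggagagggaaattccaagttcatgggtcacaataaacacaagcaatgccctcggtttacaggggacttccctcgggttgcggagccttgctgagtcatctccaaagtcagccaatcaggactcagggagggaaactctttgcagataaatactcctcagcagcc
A match is a description of these letters and not of binding. Over 300-base windows that run from 250 bases before to 50 after each start, 943 of 27025 promoters (3.49%) held the motif, and 3.02% of those of genes tested. Of the 195 higher genes with separate libraries, 153 had a promoter in the table and 16 (10.5%) held it. Of the 192 lower genes, 136 had one and 5 (3.68%) held it. Among the 12 named rises 4 of 9 promoters held the motif, and among the 12 named falls 0 of 8. These sets were chosen on the measured change, so the shares carry no test.

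Ifit1, which binds foreign RNA that lacks cap methylation (chromosome 19, 34640889 to 34650009), had 120 and 115 normalized counts in WT against 870 and 1375 in Tfam+/-, then 153 and 116 in Zbp1-/- against 252 and 258 in Tfam+/-Zbp1-/-. The changes were 3.21 with Zbp1 and 0.93 without, and the interaction was -2.28 (limma, adjusted p = 0.047). Rtp4, an interferon-inducible regulator of receptor transport and of antiviral responses, had 39.2 and 27.7 in WT against 348 and 446 in Tfam+/-, then 52.7 and 35.7 in Zbp1-/- against 78.5 and 91.6 in Tfam+/-Zbp1-/-. Its interaction was -2.59 (adjusted p = 0.047). Both were higher in the double mutant than in Zbp1-/- libraries, by less than in the comparison with WT.

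Mx1, an antiviral GTPase, had the largest smaller change of the rises. Its normalized counts were 1.96 and 1.90 in WT against 25.7 and 37.1 in Tfam+/-, then 1.02 and 4.15 in Zbp1-/- against 8.53 and 15.9 in Tfam+/-Zbp1-/-. The changes were 3.44 and 1.97 (main effect SE 0.414 with the shared term, adjusted p = 0.0085, limma), and the interaction of -1.47 did not pass (adjusted p = 0.33). Without the shifted libraries the changes were 3.70 and 2.65. Cxcl10, a chemokine that draws T cells, had 38.8 and 35.0 in WT against 193 and 237 in Tfam+/-, then 21.0 and 24.0 in Zbp1-/- against 58.6 and 43.7 in Tfam+/-Zbp1-/-. Cmpk2, a nucleotide kinase of mitochondria, had 33.7 and 25.6 in WT against 154 and 151 in Tfam+/-, then 26.6 and 38.2 in Zbp1-/- against 62.1 and 78.2 in Tfam+/-Zbp1-/-. In both genes every Tfam+/- library exceeded its controls, with changes of 2.50 and 1.14 for Cxcl10 and 2.34 and 1.10 for Cmpk2.

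The remaining interferon-inducible rises are given by their changes. Ccl5, a chemokine, changed by 3.40 with Zbp1 and 0.97 without, and Ddx60, a helicase that aids RNA sensing, by 2.87 and 0.92. Ifi44 changed by 3.51 and 1.44. Apol9b (3.09 and 1.38), Ifi209 (1.26 and 1.86) and Phf11d (2.26 and 1.20) belong to families with near-identical copies, so how their reads were assigned is uncertain. Without the 2 shifted libraries the Ifi209 changes were 1.75 and 1.17, those of Ifi44 4.055 and 1.14, and those of Ddx60 3.38 and 0.80. The shared-term calls of Mx1, Apol9b, Phf11d, Cxcl10 and Cmpk2 held in 6 of 6 fits that left out another library. Ifi44, Ifi209, Ifit1 and Isg15 kept theirs in 4 of 6, Ccl5, Rtp4 and Usp18 in 3, and Ddx60 in 2. Herc6, the ligase that attaches ISG15 in mice, was chosen after its values were seen. It had 147 and 146 normalized counts in WT against 188 and 258 in Tfam+/-, then 111 and 84.0 in Zbp1-/- against 164 and 185 in Tfam+/-Zbp1-/-. Its changes were 0.59 and 0.85, or 0.82 and 0.65 without the shifted libraries, and the interaction of 0.26 did not pass (adjusted p = 0.56, limma). Herc6 kept its call in 6 of 6 fits.

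Leukocyte markers moved with the interferon genes in part. The summed level of the 18 markers was 6208 and 6140 in WT against 8666 and 7235 in Tfam+/-, then 3951 and 3977 in Zbp1-/- against 3140 and 3176 in Tfam+/-Zbp1-/-. It was thus higher with the Tfam+/- genotype where Zbp1 was present and lower where it was absent. Of the 16 tested, 0 were called in the Tfam main effect with limma and the shared term, and 1 was lower at an unadjusted p under 0.05. Their changes were above 0 for 15 with Zbp1 and for 2 without. The part of these cells in the interferon result was not tested.

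**Figure D3:**
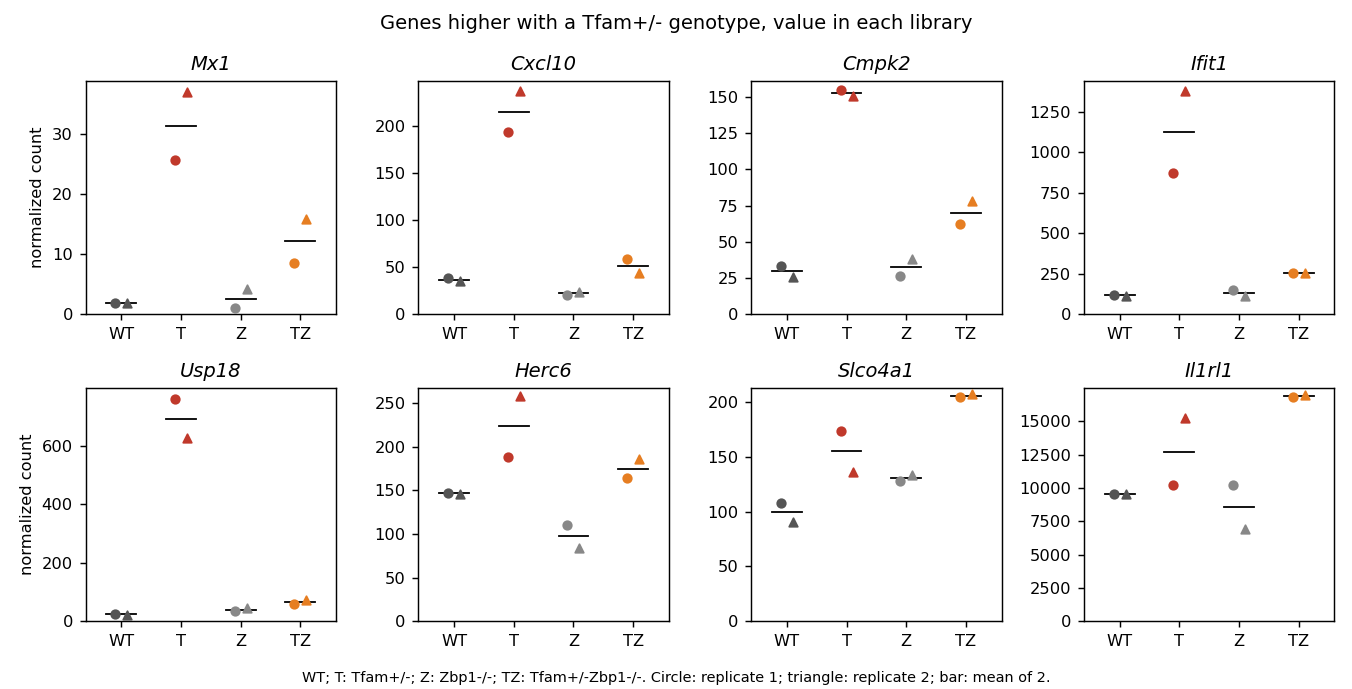
Normalized counts per library (vertical axis, starting at 0) of 8 genes higher with a Tfam+/- genotype, for WT, Tfam+/- (T), Zbp1-/- (Z) and Tfam+/-Zbp1-/- (TZ). Circles are replicate 1, triangles replicate 2 and bars the mean of 2. Usp18 and Ifit1 rise steeply from WT to T and little from Z to TZ, while Herc6, Slco4a1 and Il1rl1 are higher in T than in WT and in TZ than in Z, with no overlap of libraries.

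Rises outside the interferon genes included Esm1, the secreted proteoglycan endocan. It changed by 0.89 with Zbp1 and 0.87 without (0.99 and 0.68 without the shifted libraries), from levels of 9.78 to 26.2 in the controls, and kept its call in 1 of 6 fits that left out another library. Slco4a1, an organic anion transporter chosen after its values were seen, had 108 and 91.0 in WT against 174 and 137 in Tfam+/-, then 128 and 133 in Zbp1-/- against 205 and 207 in Tfam+/-Zbp1-/-. The Slco4a1 changes were 0.63 and 0.65, or 0.46 and 0.68 without the shifted libraries.

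Further rises with separate libraries in both backgrounds were also chosen after their values were seen. Kcnk1 (a potassium leak channel) changed by 0.69 and 0.88, and Kcnn4 (a potassium channel opened by calcium) by 0.57 and 0.62. Sfn (the adaptor protein 14-3-3 sigma) changed by 0.70 and 0.63, and Six2 (a homeobox transcription factor) by 0.71 and 0.59. Lhx8, another homeobox factor, changed by 0.86 and 0.57, Abhd1 by 0.74 and 1.33, and Mitd1, which acts in the last step of cell division, by 0.58 and 0.56. The sizes in the 2 backgrounds moved once the shifted libraries were left out. They were then 0.32 and 0.87 for Sfn, 0.86 and 0.35 for Mitd1, 0.40 and 0.72 for Six2, and 0.27 and 0.83 for Kcnn4. Kcnk1 changed by 0.50 and 0.68, Lhx8 by 1.10 and 0.58, and Abhd1 by 0.29 and 1.49. The shared-term interaction passed for Sfn and Mitd1 (limma, adjusted p = 0.012 and 0.021). Sfn and Mitd1 kept the call in 6 of 6 fits that left out another library, Kcnk1, Kcnn4, Six2 and Lhx8 in 2 and Abhd1 in 1.

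Besides Igfbp3, Col14a1, Sfrp1, Tfam and Il1rl1, the fit with averaged pairs called other genes, named here because of those calls. Ptn (pleiotrophin, a heparin-binding growth factor) had 13544 and 13549 normalized counts in WT against 6781 and 8395 in Tfam+/-, then 22141 and 15464 in Zbp1-/- against 12385 and 13165 in Tfam+/-Zbp1-/-. Dlk1, a ligand related to Notch ligands that marks preadipocytes, had 1592 and 1633 in WT against 1433 and 1037 in Tfam+/-, then 3814 and 5115 in Zbp1-/- against 2037 and 2011 in Tfam+/-Zbp1-/-. Every Tfam+/- library of these 2 genes was below its controls. The main effect was -0.69 for Ptn and -0.76 for Dlk1.

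Nov (CCN3, a matricellular protein) fell by 0.81 and 0.43 on the log2 scale in the 2 backgrounds, and Itga11, the alpha 11 subunit of a collagen-binding integrin, by 0.45 and 1.04. Aldh1l2, a folate enzyme of mitochondria, fell by 0.82 and 0.42, and Arhgap20 by 0.94 and 0.47. Svep1, an extracellular adhesion protein, fell by 0.31 and 0.51, and Cdkn1c, an inhibitor of cyclin-dependent kinases, by 0.39 and 0.81. C1qtnf3 and Itm2a were lower in both means (main effects -0.56 and -0.41), but their libraries overlapped in 1 background. Tnn (tenascin-W) rose by 0.77 and 0.36. Hmga1b, a chromatin protein gene with near-identical copies and thus uncertain reads, rose by 0.56 and 0.29. Without the shifted libraries the changes were -0.57 and -0.69 for Nov, -0.73 and -0.73 for Arhgap20, and 0.36 and 0.47 for Hmga1b.

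Gene lists were then read for movement in the same direction in both backgrounds. Of 35 cell cycle genes tested 16 rose with the shared term and 0 fell, against 3.47% and 3.43% of all genes tested, and 9 of the 16 had the same sign in both backgrounds. In 15 of the 35 the libraries did not overlap in either background, with all Tfam+/- libraries higher, against 3.46% of all genes tested. The median change was 0.12 with Zbp1 and 0.40 without. Examples are Mcm2 and Mcm6, subunits of the replicative helicase, with main effects of 0.25 and 0.21, Birc5 (survivin) with 0.31, and Cdk1, the mitotic kinase, with 0.28. Cdk1 had 1897 and 1942 normalized counts in WT against 2190 and 2079 in Tfam+/-, then 1595 and 1660 in Zbp1-/- against 2098 and 2192 in Tfam+/-Zbp1-/-. The changes were small and the controls without Zbp1 started lower. The calls of Mcm6, Birc5 and Cdk1 were lost in some of the fits that left out another library. Limma called 0 of the 35 in the 6 libraries and 0 with the close pairs averaged, where 27 and 26 were higher at an unadjusted p under 0.05.

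HOX genes, which set the position of cells along the body axis and the limb, moved the other way. Of 34 tested 9 fell with the shared term and 0 rose, against 3.43% and 3.47% of all genes tested. The libraries of 9 did not overlap in either background, all lower, against 3.21% of all genes tested. The median change was -0.32 with Zbp1 and -0.61 without. Hoxc8 had 503 and 490 normalized counts in WT against 338 and 368 in Tfam+/-, then 566 and 550 in Zbp1-/- against 308 and 311 in Tfam+/-Zbp1-/-. Its main effect was -0.67 ± 0.077 (SE with the shared term; limma, adjusted p = 0.0029). Hoxa5 went from 239 and 265 to 127 and 136 with Zbp1, and from 152 and 121 to 113 and 101 without. Hoxc6 and Hoxb3 fell by 0.26 and 0.39 with Zbp1 and by 0.93 and 1.09 without on the log2 scale. Hoxa3 (-0.65 and -0.70) and Hoxa6 (-0.80 and -0.71) were chosen after their values were seen, and Hoxa6 (-1.06 and -0.71 without the shifted libraries) kept its call in 0 of 6 fits that left out another library. Limma called 0 of the 34 in the 6 libraries and 0 with the close pairs averaged, where 12 and 13 were lower at an unadjusted p under 0.05. The calls of Hoxc6, Hoxb3 and Hoxa3 were lost in some of the fits that left out another library. The part of the embryo used for each culture is not stated in the labels. Among 50 other limb and mesenchyme patterning factors 4 fell and 1 (Six2) rose, against 3.43% and 3.47% of all genes tested. The falls included Meis1 and Meis2 (both -0.44), which encode partners of HOX proteins.

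Extracellular matrix genes fell more often than they rose. Of 38 collagen genes tested 13 fell and 0 rose, against 3.43% of all genes tested called lower, and 11 of the 13 were lower in both backgrounds. Libraries of 7 did not overlap, against 3.21% lower without overlap over all genes tested. Limma called 1 of the 38 lower with the close pairs averaged and 5 in the 6 libraries. Besides Col14a1 these included Col24a1 (-0.70 and -0.97, chosen after its values were seen) and Col3a1, a main fibrillar collagen of soft tissue. Col3a1 had 61450 and 61136 normalized counts in WT against 49249 and 43766 in Tfam+/-, then 80026 and 88481 in Zbp1-/- against 69950 and 69794 in Tfam+/-Zbp1-/-. The abundant Col1a1, Col6a1 and Col6a2 were also called, with main effects of -0.20, -0.24 and -0.29, but their changes with Zbp1 were -0.06, -0.01 and -0.05. Without the shifted libraries these 3 changes were -0.28, -0.21 and -0.29. Of 32 matrix proteases and inhibitors 11 fell, 7 of them in both backgrounds, and 1, the inhibitor Timp1, rose (0.22), against 3.43% and 3.47% of all genes tested. With the close pairs averaged limma called 0 of the 32 (16 were lower at an unadjusted p under 0.05), and in the 6 libraries it called 2 lower and 1 higher. Mmp2, a gelatinase, had a main effect of -0.36 and the aggrecan-cleaving enzyme gene Adamts5 one of -0.35, and the related Adamts15 fell by 0.54 with Zbp1 and 1.34 without (-0.82 and -1.29 in the 6 libraries).

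The fibroblast and cartilage markers contain some of these collagens. Of 12 fibroblast markers 6 fell, 3 of them in both backgrounds, and 2 (Vim and S100a4) rose in both, against 3.43% and 3.47% of all genes tested. Their median change was -0.03 with Zbp1 and -0.33 without. With the close pairs averaged limma called 0 of the 12 (8 were lower and 2 higher at an unadjusted p under 0.05), and in the 6 libraries it called 2 lower. Of 11 cartilage and bone markers 5 fell, 4 of them in both backgrounds, and 0 rose. Their median change was -0.73 with Zbp1 and 0.01 without. These calls were not made with the close pairs averaged or in the 6 libraries. Sox5 fell by 1.21 and 0.53 on the log2 scale (-0.71 and -0.78 in the 6 libraries), and Sox9, the master factor of cartilage, had a main effect of -0.24. Among the shared-term fits that left out another library, the Sox9 call held only without Tfam+/- replicate 2. Of 26 myofibroblast and contractile genes 3 rose, including Ctgf (0.42 with Zbp1 and 0.09 without), and Itga11 fell. The lists of endothelial (5 tested), epithelial (4) and skeletal muscle markers (5) each had 1 member called higher, Kdr, Krt19 and Acta1. Acta1 had opposite signs in the 2 backgrounds. The calls of Ctgf, Kdr and Krt19 were lost in some of the fits that left out another library.

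The nuclear genes of mitochondria had small median main effects. Of 37 genes of mitochondrial DNA maintenance and transcription, 2 rose and 2 fell, with a median main effect of 0.02. Tfam was the largest fall. The other called members were the carrier gene Slc25a36 (-0.21, with opposite signs in the 2 backgrounds), Atad3a (0.25), whose product binds nucleoids, and the flap nuclease gene Fen1 (0.33). Polg and Twnk, which encode the mitochondrial DNA polymerase and helicase, had main effects of 0.08 and 0.00 and were not called, and neither was the RNA polymerase gene Polrmt (0.04). Of 82 mitochondrial ribosome genes 3 rose and 0 fell (3.66%), and of 77 nuclear genes of oxidative phosphorylation 4 rose and 0 fell (5.19%), against 3.47% called higher over all genes tested. Of 25 mitochondrial chaperones and proteases 6 rose, 3 of them in both backgrounds, and 0 fell. Among the rises were Hspd1 (0.20), Hspe1 (0.17) and Timm23 (0.18). The Hspe1 and Timm23 calls were lost in some of the fits that left out another library. The median main effects of these 3 lists were 0.09, 0.07 and 0.10. At an unadjusted p under 0.05 with the shared term (limma), 19 of the 82, 27 of the 77 and 13 of the 25 were higher and 0 lower. Over all genes tested 24.4% passed this in either direction. Genes encoded by mitochondrial DNA were not analysed here, since 0 of their names matched.

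Stress and metabolic lists were read against the 3.47% of all genes tested that were called higher and the 3.43% called lower. Of 30 genes of the integrated stress response, the translation-linked program that mitochondrial damage can start, 0 rose and 5 fell, 3 of them in both backgrounds. With the close pairs averaged these calls were not made. Atf5 and Pycr1 each had a main effect of -0.21. Vldlr fell by 0.42 with Zbp1 and 0.24 without (-0.32 and -0.41 in the 6 libraries). The Pycr1 call was lost in some of the shared-term fits that left out another library. Of 22 glycolysis genes 9 rose, 5 of them in both backgrounds, and 0 fell, with a median of 0.29 with Zbp1 and -0.01 without. With the close pairs averaged limma called 0 of the 22 (12 were higher at an unadjusted p under 0.05), and in the 6 libraries it called 1. Among the 22, Pgk1 was the only member with separate libraries in both backgrounds (0.19 and 0.23). Of 19 NRF2 antioxidant genes 3 rose, all in both backgrounds, including Txnrd1 (0.12 and 0.28, or 0.20 and 0.22 in the 6 libraries). Of 23 p53 and senescence genes 4 fell, 1 of them in both backgrounds and among them Gadd45a (-0.32), and 1 rose. The Gadd45a call held only without Tfam+/- replicate 2 among the shared-term fits that left out another library. Of 24 cholesterol synthesis genes 1 fell, with opposite signs in the 2 backgrounds, and 0 rose.

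**Figure D4:**
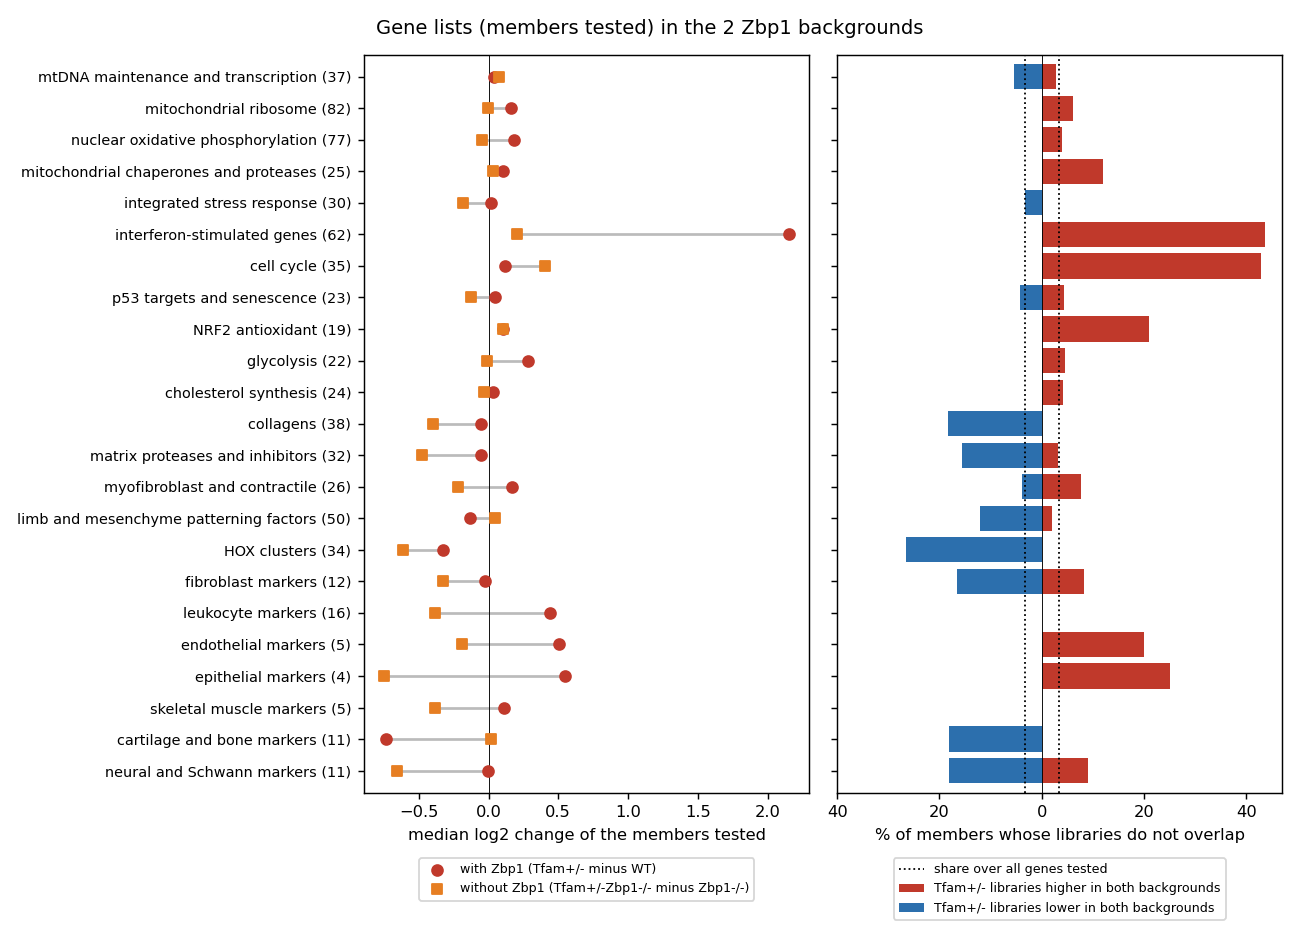
The 23 gene lists with the number of members tested in brackets. Left, median log2 change with Zbp1 (red circles) and without (orange squares); right, percent of members whose Tfam+/- libraries all lay above (red) or below (blue) the controls in both backgrounds, with dotted lines at the shares over all genes tested, 3.46% and 3.21%. The interferon list has medians of 2.15 and 0.20, the cell cycle list 0.12 and 0.40, and the HOX list -0.32 and -0.61.

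Genes near Tfam were examined because a mutated allele is carried with the DNA around it. Of 6 other genes tested within 1 Mb of Tfam, 0 were called with limma and the shared term, and 2 were lower at an unadjusted p under 0.05. Within 10 Mb 174 others were tested, and 12 were higher and 5 lower (9.77%, against 6.9% of all genes tested). The nearest called gene was Cdk1, 1.89 Mb away. Susd2 had the lowest value among the neighbours, -0.88, but its libraries overlapped in 1 background, and Ppa1, a cytosolic pyrophosphatase, had a main effect of 0.34. Both were chosen after their values were seen, and the Susd2 call was lost in some of the fits that left out another library. Libraries of 4 of the 174 did not overlap in either background, against 6.67% of all genes tested.

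**Figure D5:**
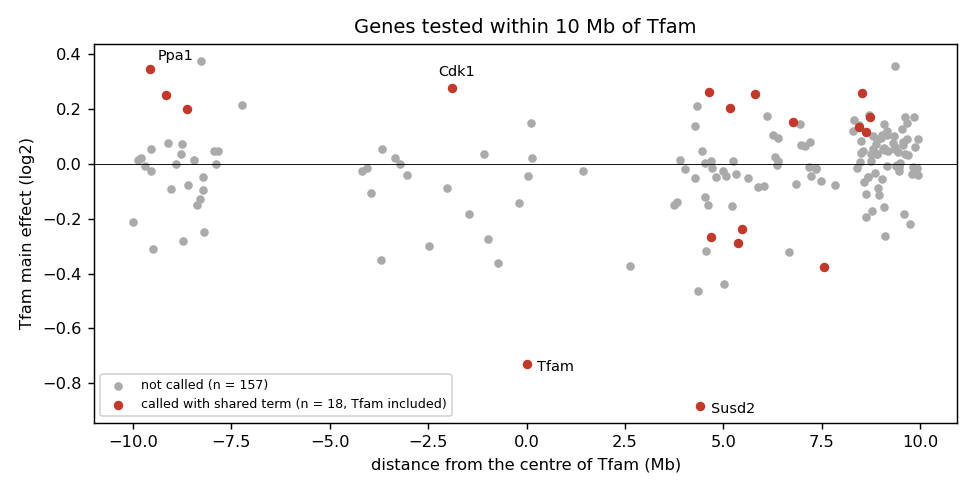
Tfam main effect (log2, vertical axis) of genes tested within 10 Mb against their distance from the centre of Tfam (Mb, horizontal axis). Red points were called with the shared term (18 with Tfam) and grey points were not (157). Tfam, at -0.73, has no called neighbour within 1 Mb.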

How the data were processed

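RNA sequencing of total RNA was analysed in 8 libraries, placed in 4 genotypes by their labels, with 2 libraries each. The values are the authors' deposited normalized counts, the signal of each gene, which is at least 0 and need not be a whole number. Reads were aligned with STAR 2.6.1a to mm10, and Salmon is also named, per the submitters' processing notes; the design text names RNAseq Alignment 2.0.0 and RNA-seq Differential Expression 1.0.0 with RefSeq genes. How reads were counted and scaled, and if strand was used, is not given in the sources used, so overlapping genes and near-identical copies are uncertain. Depth is known only as library totals of 16752835 to 18303036 normalized counts, and counting noise was estimated from the smallest repeated value of each library. Of values up to 20 estimated reads, 22.2% to 35.0% lay within 0.01 of a whole number, so no count model was run.

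From the 24972 genes, the 13267 with a mean of at least 10 were tested on log2(normalized count + 1), which understates the change of low genes. Here limma 3.58.1 in R 4.3.3 (lmFit and eBayes with a mean-variance trend, two-sided, Benjamini-Hochberg over all genes tested) fitted Tfam and Zbp1 genotype, with 5 residual and 2.72 prior degrees of freedom. The fit with the shared term had 4 and 4.71. The interaction was fitted on the 4 genotype means with no covariate. The script was tested on simulated data.

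The members and lists were chosen with earlier results of these data known. The named rises and falls are the 12 per direction with the largest smaller change of the 2 backgrounds, the same sign and no overlap of libraries. Only Igfbp3 qualified in the additive fit, so the others came from the shared-term fit, as the rule provides, and up to 4 called members per list were taken from that fit too. A named fall and a named list member are not reported here. Predicted names were not named, and 24 names turned into dates (18 tested) are not named. Positions and promoters are from RefSeq (GRCm38.p6), which matched 24407 names; 1-based coordinates are given. Alternatives were other pseudocounts (5 and 0.1), no filter, means of 50 or more, scaling by trimmed means of log ratios (TMM), a prior without trend, a replicate block, leaving out each library, the shared term and the 6 unshifted libraries. The averaged pairs and the shared term in combination with other settings were chosen after seeing the data.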

Additional observations from a re-analysis of the deposited data

Results flagged for a closer look

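In the fit without the shared term, the Tfam change differed between the Zbp1 backgrounds, by the interaction test of limma, for 5 of the genes named. The difference (change without Zbp1 minus change with it) was -2.59 for Rtp4, -2.28 for Ifit1, -3.49 for Isg15 and -4.11 for Usp18, and each was higher with a Tfam+/- genotype in both backgrounds. For Ngfr it was -2.11: this receptor gene had 116 and 114 normalized counts in WT against 104 and 107 in Tfam+/-, then 266 and 374 in Zbp1-/- against 65.1 and 68.3 in Tfam+/-Zbp1-/-, so nearly all of its fall lay in the cells without Zbp1. The adjusted p-values were 0.047, 0.047, 0.019, 0.015 and 0.030 in the order given (limma). With the shared term the interaction also passed for further named genes. Among them were Ifi44 (limma, adjusted p = 1.1e-05), Ddx60 (0.0020), Cdh19 (0.0048), Cxcl10 (0.010), Phf11d (0.030), Ccl5 (0.035) and Abcc9 (0.047).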

How the results depend on the processing

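The additive Tfam effect called 1 gene, and the same number with pseudocounts of 5 and 0.1, without a filter, with means of 50 or more and with TMM scaling. It called 915 with the shared term (662 with the same direction in both backgrounds), 83 (70) with the spread taken from the 4 genotype means, and 92 (92) in 6 libraries. It called 0 (0) with a prior without trend, with the replicate block and with the WT and Tfam+/-Zbp1-/- pairs averaged, where limma gave 786, 545 and 223 genes at an unadjusted p under 0.05. Leaving out 1 library gave 0 to 1 calls (0 to 1), with 444 to 1184 genes at an unadjusted p under 0.05. The interaction called 88 genes, 2240 with the shared term, 47 without a filter, 2534 in 6 libraries, 0 with the replicate block and 0 with averaged pairs (1381 and 413 at an unadjusted p under 0.05, limma), and 0 to 126 when 1 library was left out. The shared-term count of 915 (662 in the same direction) was 3400 (1754) with the 4 genotype means, 414 (329) with the replicate block, 92 (92) in 6 libraries, 19 (19) with averaged pairs and 256 to 1493 (214 to 872) when 1 library was left out. The additive and shared-term fits held no interaction term, so differences between the backgrounds were part of their error. With the 4 genotype means these differences were not part of the error. Fewer samples or residual degrees of freedom went into the block, averaged and left-out fits. Otherwise the cause was not tested. The replicate numbers did not pair the samples: differences between replicates correlated from -0.70 to 0.06 between genotypes.

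In the additive fit only Igfbp3 passed among the genes whose values were tabulated. All 110 passed with the shared term, which the naming rule drew on, so this was largely set by the choice. Of their shared-term calls 58 held in every fit that left out 1 library, 50 in some and 2 in none; 181 of 660 such calls were lost. Of 437 list medians 67 moved by more than the replicate spread. A count model could not be fitted to values that are not whole, so it was not run. Only 2 libraries per genotype limit the precision of every change.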
